A study of Homo sapiens with 18 samples.

Results

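The BTG/TOB and ZFP36 mRNA decay factors are the 8 genes BTG1, BTG2, BTG3, TOB1, TOB2, ZFP36, ZFP36L1 and ZFP36L2. They were chosen by name as members of these families, but with earlier results of these data known. Counts of calls among them, set beside the shares over all genes below, are therefore descriptions. All 8 were among the 15519 genes that passed the filter on low counts, out of 23903 genes with a count. RNA-Seq was performed on HEK293 cells, a human embryonic kidney line, to compare the transcription that follows the β2-adrenergic receptor (β2AR) when either of its transducers is missing. Libraries came from wildtype cells, from cells that lack both β-arrestins by CRISPR-Cas9 (β-arrestin1/2 KO) and from cells that lack the stimulatory G protein α subunit (Gαs KO). In all 6 groups the cells were transfected with HA-tagged β2AR, serum starved overnight and, 48 h after transfection, given vehicle (basal) or 1 μM of the agonist isoproterenol for 1 h. Each group had 3 biological replicates, so 18 libraries were available. Whether each knockout line was a single clone is not given in the sources used here.

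BTG/TOB proteins are short adaptors without known catalytic activity of their own. Their shared amino-terminal domain binds the CAF1 nuclease of the CCR4-NOT complex, and TOB proteins also bind the cytoplasmic poly(A)-binding protein, which brings the deadenylase to poly(A) tails. ZFP36 proteins bind AU-rich elements in 3′ untranslated regions through a tandem of CCCH zinc fingers and recruit the same complex, so both families shorten poly(A) tails, the first step in the decay of most mRNAs. In many cell types they are early response genes, and ZFP36 proteins are inhibited by MK2 phosphorylation and 14-3-3 binding.

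The genes lie on 8 chromosomes of GRCh38, as annotated by GENCODE 29. BTG1 is at chr12:92140278-92145897 (minus strand), BTG2 at chr1:203305491-203309602 (plus), BTG3 at chr21:17593653-17612947 (minus), TOB1 at chr17:50862223-50867978 (minus) and TOB2 at chr22:41433492-41447023 (minus). ZFP36 is at chr19:39406813-39409412 (plus), ZFP36L1 at chr14:68787660-68796253 (minus) and ZFP36L2 at chr2:43222402-43226609 (minus). BTG1, BTG3 and TOB1 overlap annotated genes on the opposite strand, and since the strand setting of the libraries is not given in the sources used here, reads of such partners cannot be told apart from theirs. BTG1 also shares 2637 bases with LINC01619 on its own strand.

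Gs signaling raises cAMP, and the cAMP response element is the DNA site of the transcription factor CREB, so the RefSeq promoters (GRCh38.p14, from 250 bases before to 50 after a start site) were searched for it. RefSeq promoters were at hand for 7 of the 8 genes, with 9 start sites, and ZFP36L2 had no entry. The full element, TGACGTCA, was found on either strand in 1.85% of all 35116 promoters and in 1 of the 7 genes, at the second start site of ZFP36L1. Its core, TGACG, which lies within the full element, was found in 24.6% of all promoters and in 4 of the 7 genes, BTG1, BTG2, TOB1 and ZFP36L1. The shares are per promoter, whereas a gene was counted if any of its start sites held a match. TOB1 and ZFP36L1 had 2 start sites each, so the units are not alike. The AP-1 element TGANTCA (7.71% of all promoters) and the CArG box (1.29%) were found in 0 of the 7. The most abundant TOB2 transcript, TOB2-201, starts at -222 from its RefSeq start site. Little of the sequence before that transcript start was therefore searched.
The windows around 5 matches are shown because these 4 genes rose with isoproterenol, as given below. A core match at -147 from the first start site of ZFP36L1, chr14:68796366-68796410 with its flanks, is not shown, since the most abundant transcript starts 3003 bases downstream of that site. Each is read 5′ to 3′ on the strand of the gene, with the match in capitals, and CGTCA is the core on the other strand.
BTG1 distal: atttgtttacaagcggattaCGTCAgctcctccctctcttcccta
BTG1 proximal: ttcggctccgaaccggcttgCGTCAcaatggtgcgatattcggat
BTG2: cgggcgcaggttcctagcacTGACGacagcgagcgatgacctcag
TOB1: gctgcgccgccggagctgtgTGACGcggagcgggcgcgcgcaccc
ZFP36L1: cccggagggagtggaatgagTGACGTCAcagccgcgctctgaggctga
The BTG1 windows are at chr12:92146014-92146058 and chr12:92145932-92145976. The BTG2 window is at chr1:203305289-203305333, the TOB1 window at chr17:50866417-50866461 and the ZFP36L1 window at chr14:68793441-68793488. The full element of ZFP36L1 began at -52 from the second start site, and the start of its most abundant transcript, ZFP36L1-202, lies 176 bases further downstream. The TOB1 core began at -87 from the second TOB1 start site, which lies 9 bases from the start of the most abundant transcript, TOB1-202. A match is a description of the letters only, and binding was not measured.

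The libraries held 17908597 to 25019834 estimated read pairs, with a median of 20419459. The labels were checked on the targeted genes. GNAS, which encodes Gαs, was at 61.3 to 71.3 CPM (counts scaled to the size of the library, here by the TMM method) in the 6 Gαs KO libraries against 1067 to 1753 in the 6 wildtype libraries. ARRB2 was at 15.2 to 23.0 CPM in β-arrestin1/2 KO cells against 79.8 to 132 in wildtype cells, whereas ARRB1 mRNA was at 37.9 to 43.5 against 38.5 to 65.3. The HEK293 markers VIM, KRT8, KRT18 and NEFL reached medians of 815, 644, 271 and 215 CPM. NEFM, INA and PAX2 had low counts in every library. Of the markers of other cells, CD3E (T cells) and HBB (red blood cells) were at 0 in all 18. PTPRC, ALB, APOA1, COL1A2 and DCN had counts in some libraries, at up to 0.502 CPM. LUM, a fibroblast marker, had counts in all 18, at 0.054 to 2.15 CPM. One library stood apart, the first wildtype basal replicate, in which the mean GC content weighted by counts was 52.5% against 49.2 to 50.1% in the other 17. It also held the highest share of the short transcripts BTG1-202 (8.37% of BTG1 counts) and BTG2-202 (10.5% of BTG2 counts). Calls of the 8 genes that change without it are given with and without it.

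Isoproterenol raised 5 of the 8 mRNAs in wildtype cells, BTG2, TOB1, ZFP36L1, ZFP36L2 and BTG1, and lowered none. Over all 15519 genes 64 were called higher, or 0.412%, and 8 lower, and the median log2 fold change was 0.53 over the 8 genes against 0.00 over all genes. Calls rest on edgeR's quasi-likelihood test with a Benjamini-Hochberg adjusted p under 0.05 across all genes. For a single gene an exact two-sided permutation test of 3 against 3 libraries cannot go below 0.1, so no such test was used. The plot of the level in each library shows every value described below.

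**Figure D1:**
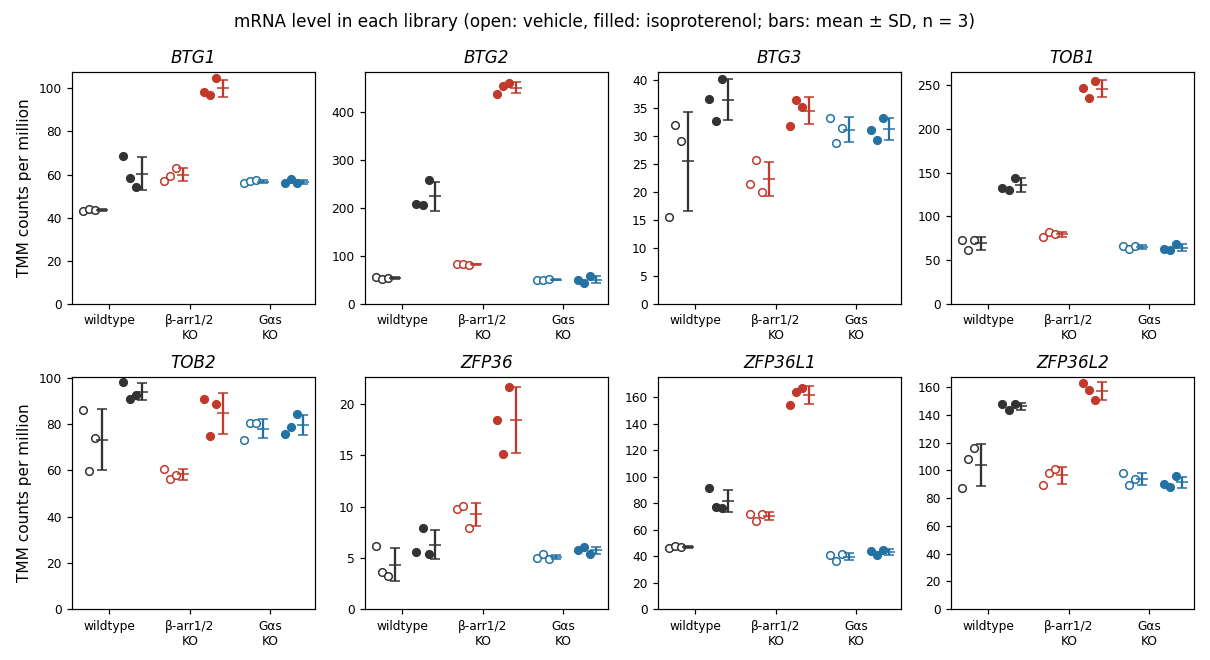
Level of the 8 mRNAs in every library, in CPM on a linear axis from 0, for the wildtype (black), Gαs KO (blue) and β-arrestin1/2 KO (red) lines. Open points are vehicle and filled points isoproterenol libraries (3 each), and bars give the mean ± SD. In wildtype cells BTG2 goes from between 52.0 and 55.3 at basal to between 206 and 259 with isoproterenol. Without β-arrestins BTG2 goes from between 81.4 and 83.7 to between 439 and 462. In Gαs KO cells it lies between 43.3 and 58.5 with isoproterenol.

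Among the BTG/TOB genes, BTG2, an antiproliferative early response gene, moved most. In wildtype cells BTG2 was at 55.3, 52.0 and 53.1 CPM at basal and at 208, 206 and 259 CPM with isoproterenol. Every stimulated library lay above every basal one, and the level was 4.19 ± 0.56-fold the basal mean (SD, n = 3). Here and below, the SD of a fold is that of the stimulated libraries alone. The spread of the basal libraries is not part of it. The log2 fold change of BTG2 was 2.07 ± 0.10 (SE, edgeR adjusted p = 3.75e-09), and it ranked 4 by p among all genes. TOB1, the adaptor that bridges CAF1 and the poly(A)-binding protein, was at 73.0, 61.1 and 73.3 CPM at basal and at 132, 130.1 and 144.5 CPM with isoproterenol. Its groups did not overlap either, and TOB1 reached 1.96 ± 0.11-fold (SD, n = 3; log2 0.97 ± 0.08 SE, edgeR adjusted p = 2.85e-06). BTG1, which is closest to BTG2 in sequence, was at 43.3, 43.9 and 43.4 CPM and then at 68.8, 58.3 and 54.3 CPM. The basal libraries of BTG1 were near each other and the stimulated ones were spread above them, 1.39 ± 0.17-fold (log2 0.47 ± 0.08 SE, edgeR adjusted p = 0.00786).

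The paralogs BTG3 and TOB2 did not pass the test in wildtype cells. TOB2 was at 86.0, 59.5 and 74.3 CPM at basal and 98.3, 91.1 and 92.8 CPM with isoproterenol, log2 0.36 ± 0.11 (SE, edgeR adjusted p = 0.27). BTG3 was at 15.5, 31.98 and 29.2 CPM at basal and 36.7, 32.8 and 40.2 CPM with isoproterenol, log2 0.52 ± 0.19 (SE, edgeR adjusted p = 0.38). The low BTG3 value and the high TOB2 value belong to the first basal replicate, the library that stood apart.

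Within the ZFP36 family, ZFP36L1 and ZFP36L2 rose and ZFP36 itself (tristetraprolin) was low and did not pass the test. ZFP36L1 was at 46.4, 47.4 and 46.5 CPM at basal and at 91.1, 76.7 and 76.4 CPM with isoproterenol, 1.74 ± 0.18-fold (log2 0.80 ± 0.08 SE, edgeR adjusted p = 3.18e-05). ZFP36L2 was at 87.3, 108 and 116 CPM and then at 148, 144 and 148 CPM, 1.41 ± 0.02-fold the basal mean (log2 0.49 ± 0.09 SE, edgeR adjusted p = 0.0137). In both genes every stimulated library was above every basal one. ZFP36 was at 6.15, 3.61 and 3.22 CPM at basal and 5.56, 7.89 and 5.40 CPM with isoproterenol, so its groups overlapped (log2 0.54 ± 0.22 SE, edgeR adjusted p = 0.43). Over the 8 genes, 7 had all 3 stimulated libraries above all 3 basal ones, a pattern held by 4.85% of all genes.

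Without the first basal replicate 7 of the 8 were called higher in wildtype cells, where 131 of 15773 genes were called higher and 42 lower. TOB2 was then at log2 0.49 ± 0.09 (SE, edgeR adjusted p = 0.00898) and ZFP36 at 0.88 ± 0.20 (adjusted p = 0.0345), while BTG3 fell to 0.26 ± 0.11 (adjusted p = 0.31). ZFP36L2 lost its call without isoproterenol replicate 1 or 3 (edgeR adjusted p = 0.0627 to 0.0724). With offsets for GC content and length BTG1 was no longer called (log2 0.16, edgeR adjusted p = 0.71) and TOB2 was (0.46, adjusted p = 0.00278). With only the 6 wildtype libraries in the fit BTG2 alone passed.

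In β-arrestin1/2 KO cells isoproterenol raised 7 of the 8 genes, all but BTG3, where 148 genes or 0.954% were called higher among all genes and 27 lower. The median log2 fold change was 0.87 over the 8 genes and -0.01 over all genes. BTG2 was at 82.6, 83.7 and 81.4 CPM at basal and at 439, 454 and 462 CPM with isoproterenol, 5.47 ± 0.14-fold (log2 2.45 ± 0.10 SE, edgeR adjusted p = 2.93e-10). TOB1 went from 76.5, 81.9 and 80.3 CPM to 247, 236 and 255 CPM, 3.09 ± 0.12-fold (log2 1.63 ± 0.08 SE, edgeR adjusted p = 1.74e-09). Replicates of both genes lay close together and the groups were far apart. BTG1 went from 57.2, 59.4 and 63.1 CPM to 98.5, 96.8 and 105 CPM, 1.67 ± 0.07-fold (log2 0.74 ± 0.08 SE, edgeR adjusted p = 3.63e-05).

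The ZFP36 genes all rose in these cells. ZFP36L1 went from 71.5, 66.7 and 72.1 CPM to 154, 164 and 167 CPM, 2.31 ± 0.10-fold (log2 1.21 ± 0.08 SE, edgeR adjusted p = 7.73e-08). ZFP36L2 went from 89.8, 98.3 and 101 CPM to 163, 158 and 151 CPM (log2 0.71 ± 0.09 SE, edgeR adjusted p = 0.000235). ZFP36 went from 9.76, 10.1 and 7.95 CPM to 18.5, 15.2 and 21.7 CPM, 1.99 ± 0.35-fold (log2 0.99 ± 0.21 SE, edgeR adjusted p = 0.025). No group of these genes overlapped its control, and ZFP36 reached the highest level seen in any group, though it stayed the least abundant of the 8.

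TOB2 went from 60.8, 56.2 and 58.2 CPM to 91.1, 74.7 and 88.6 CPM in β-arrestin1/2 KO cells (log2 0.54 ± 0.11 SE, edgeR adjusted p = 0.0199). BTG3 was at 21.4, 25.7 and 19.9 CPM and then at 31.9, 36.6 and 35.3 CPM, and its log2 fold change of 0.63 ± 0.19 missed the threshold (SE, edgeR adjusted p = 0.21). All 8 genes had every stimulated library above every basal one, a pattern held by 15.4% of all genes in this line. The basal libraries of this line had a mean GC content of 49.8 to 50.1% and the stimulated ones 49.3 to 49.4%, and mitochondrial genes took 1.7 to 2.66% of the counts at basal and 2.97 to 3.32% with isoproterenol. The part of the mitochondrial share in the responses was not tested. With offsets for GC content and length BTG1 was at log2 0.62 (edgeR adjusted p = 0.0606) and BTG3 at 0.57 (adjusted p = 0.0248). TOB2 and ZFP36 each lost the call when any 1 library of the line but the second isoproterenol replicate was left out, with adjusted p-values of 0.0623 to 0.127 and of 0.0729 to 0.174.

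In Gαs KO cells 0 of the 8 genes were called, as were 0% of all genes by edgeR's quasi-likelihood test, whereas 163 genes and 0 of the 8 had an unadjusted p under 0.05. DESeq2's Wald test called 9 genes and 0 of the 8. BTG2 was at 49.9, 50.3 and 51.9 CPM at basal and 49.2, 43.3 and 58.5 CPM with isoproterenol, and TOB1 at 65.6, 62.3 and 66.3 CPM and 62.3, 61.4 and 68.8 CPM. In both the groups overlapped, with log2 fold changes of -0.01 ± 0.10 and -0.01 ± 0.08 (SE). The other genes ran from -0.04 ± 0.09 (ZFP36L2) through 0.13 ± 0.08 (ZFP36L1) to 0.17 ± 0.22 (ZFP36), and their median over the 8 was 0.00. ZFP36 was the 1 gene with every stimulated library above every basal one, at 5.41 to 6.03 against 4.90 to 5.34 CPM, which 4.9% of all genes also showed.

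**Figure D2:**
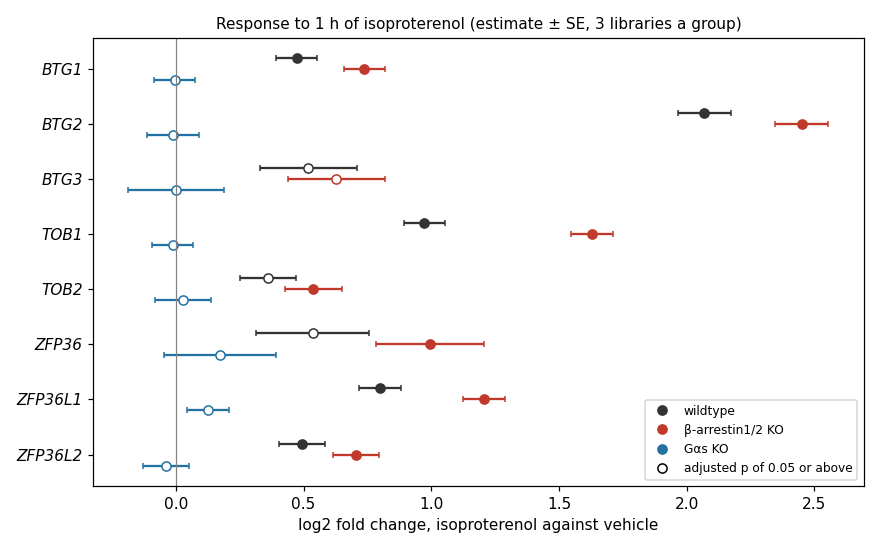
Log2 fold change of each mRNA with isoproterenol for the wildtype (black), Gαs KO (blue) and β-arrestin1/2 KO (red) lines, as the estimate ± SE of the edgeR model with 3 libraries a group. Open points did not pass the adjusted threshold. The 8 Gαs KO points lie between -0.04 and 0.17, the wildtype points between 0.36 and 2.07 and the β-arrestin1/2 KO points between 0.54 and 2.45.

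The differences in response were tested as interaction terms. Against wildtype cells the response of Gαs KO cells was lower for BTG2 (log2 difference -2.08 ± 0.14 SE, edgeR adjusted p = 5.51e-07), TOB1 (-0.99 ± 0.11, adjusted p = 0.000349) and ZFP36L1 (-0.67 ± 0.11, adjusted p = 0.0181). These were 3 of the 8 genes, where 24 or 0.155% of all genes were called lower and 1 higher. The other 5 were also negative, from -0.33 (TOB2) to -0.53 (ZFP36L2), without passing the test. ZFP36L2 was called without the first wildtype basal replicate (-0.42, edgeR adjusted p = 0.0171). The TOB1 difference missed the threshold with GC and length offsets (-0.80, edgeR adjusted p = 0.0933). ZFP36L1 missed it without wildtype basal replicate 3, wildtype isoproterenol replicate 1, Gαs KO basal replicate 1 or 3, or Gαs KO isoproterenol replicate 1 or 2 (adjusted p = 0.0522 to 0.0942).

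The response of β-arrestin1/2 KO cells exceeded that of wildtype cells for TOB1 alone among the 8, by 0.66 ± 0.11 on the log2 scale (SE, edgeR adjusted p = 0.0209), where 22 or 0.142% of all genes were called higher and 4 lower. The other 7 differences were positive and uncalled, 0.38 ± 0.14 for BTG2, 0.41 ± 0.11 for ZFP36L1, 0.46 ± 0.31 for ZFP36, 0.26 ± 0.11 for BTG1 and 0.11 to 0.21 for BTG3, TOB2 and ZFP36L2. The TOB1 call was close to the threshold. It was lost in 7 of 12 fits that left out 1 library, those without wildtype basal replicate 3, wildtype isoproterenol replicate 1 or 2, β-arrestin1/2 KO basal replicate 1 or 3, or β-arrestin1/2 KO isoproterenol replicate 1 or 3, with differences of 0.60 to 0.66 and adjusted p-values of 0.0617 to 0.0995. With GC and length offsets the TOB1 difference was 0.76 (edgeR adjusted p = 0.0605). Without the first wildtype basal replicate TOB1 (0.61, adjusted p = 0.00244), ZFP36L1 (0.41, adjusted p = 0.0248) and ZFP36L2 (0.32, adjusted p = 0.0228) were called, in a fit that called 694 genes higher and 608 lower of 15773. Both differences use the same wildtype libraries.

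At basal, 4 of the 8 genes were higher in β-arrestin1/2 KO than in wildtype cells and 1 was lower, where 15.7% of all genes were called higher and 17.9% lower. ZFP36 was higher by 1.09 ± 0.22 on the log2 scale (SE, edgeR adjusted p = 0.00115), BTG2 by 0.63 ± 0.10 (adjusted p = 0.000174), ZFP36L1 by 0.58 ± 0.08 (adjusted p = 4.57e-05) and BTG1 by 0.46 ± 0.08 (adjusted p = 0.000373). TOB2 was lower by a log2 difference of -0.33 ± 0.11 (SE, edgeR adjusted p = 0.0315), and BTG3, TOB1 and ZFP36L2 were uncalled.

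Without the first wildtype basal replicate 7 of the 8 were called between these basal groups, in a fit that called 46.7% of all genes (3637 higher and 3731 lower), with TOB1 higher (0.25, edgeR adjusted p = 0.0095), BTG3 (-0.44, adjusted p = 0.0031) and ZFP36L2 (-0.21, adjusted p = 0.00615) lower, and TOB2 uncalled. TOB1 was also called without the third wildtype basal replicate (0.25, adjusted p = 0.0409). TOB2 lost its call without wildtype basal replicate 1 or 3 or any 1 β-arrestin1/2 KO basal replicate (-0.35 to -0.19, adjusted p = 0.0546 to 0.110). BTG1 was at 0.17 with GC and length offsets (edgeR adjusted p = 0.43).

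Between Gαs KO and wildtype cells 2 of the 8 genes were called at basal. BTG1 was higher by 0.38 ± 0.08 on the log2 scale (SE, edgeR adjusted p = 0.0018), 1 of the 8 where 14.2% of all genes were called higher. ZFP36L1 was lower, by a log2 difference of -0.25 ± 0.08 (SE, edgeR adjusted p = 0.0296), 1 of the 8 where 17.1% of all genes were called lower. BTG2 differed by -0.08 ± 0.10 and TOB1 by -0.10 ± 0.08, neither of which passed the test. Without the first wildtype basal replicate ZFP36 (0.57, adjusted p = 0.023) and ZFP36L2 (-0.26, adjusted p = 0.0016) were called as well, which made 4 of the 8 in a fit that called 45.9% of all genes (3456 higher and 3780 lower). ZFP36L1 lost its call without the third wildtype basal or the first or second Gαs KO basal replicate (-0.27 to -0.19, adjusted p = 0.0515 to 0.135), and BTG1 was at 0.09 with GC and length offsets (adjusted p = 0.69).

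**Figure D3:**
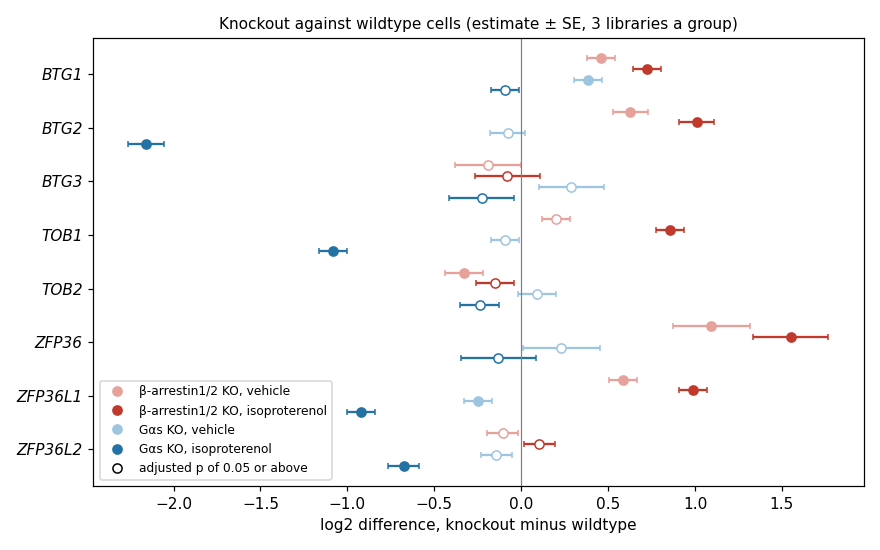
Log2 difference of each mRNA between a knockout line and wildtype cells, under vehicle (light) and isoproterenol (dark), for the Gαs KO (blue) and β-arrestin1/2 KO (red) lines, as the edgeR estimate ± SE with 3 libraries a group. Open points did not pass the adjusted threshold. Under isoproterenol BTG2 lies 1.01 above wildtype in β-arrestin1/2 KO cells and 2.16 below it (-2.16) in Gαs KO cells.

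The contrasts of the levels under isoproterenol hold no basal library. The library that stood apart still entered the shared scaling and the estimate of the spread. In β-arrestin1/2 KO cells 5 of the 8 genes were higher than in stimulated wildtype cells, where 14.3% of all genes were called higher. They were ZFP36 (1.55 ± 0.22 on the log2 scale, SE, edgeR adjusted p = 5.13e-05), BTG2 (1.01 ± 0.10, adjusted p = 1.42e-06), ZFP36L1 (0.99 ± 0.08, adjusted p = 1.84e-07), TOB1 (0.86 ± 0.08, adjusted p = 7.8e-07) and BTG1 (0.73 ± 0.08, adjusted p = 5.23e-06). ZFP36L2, BTG3 and TOB2 were within 0.15 of wildtype levels and uncalled. In Gαs KO cells 4 of the 8 genes were lower, where 15.8% of all genes were called lower, namely BTG2 (-2.16 ± 0.10, adjusted p = 3.05e-10), TOB1 (-1.08 ± 0.08, adjusted p = 6.67e-08), ZFP36L1 (-0.92 ± 0.08, adjusted p = 3.79e-07) and ZFP36L2 (-0.68 ± 0.09, adjusted p = 3.09e-05). The 9 calls under isoproterenol held in every fit that left out 1 library of the groups compared. The library that stood apart was not among those left out.

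Levels of different genes can be compared only per length, for which TPM, a share of all transcripts in the library, was computed from counts and annotated transcript lengths. In basal wildtype cells TOB1 was highest at 60.3 ± 6.2 TPM (SD, n = 3), followed by ZFP36L2 at 50.6 ± 11.9 and BTG2 at 36.4 ± 0.6. BTG3 (32.1 ± 13.6), ZFP36L1 (30.7 ± 3.4) and TOB2 (30.7 ± 4.5) came next. The libraries of TOB1 and ZFP36L2 overlapped, and those of BTG3, from 16.6 to 41.9 TPM, overlapped those of every gene but TOB1 and ZFP36. BTG1 was at 19.96 ± 3.97 and ZFP36 was last at 4.21 ± 1.05 TPM. With isoproterenol BTG2 led at 157 ± 18 TPM, above TOB1 at 120 ± 3 and ZFP36L2 at 74.9 ± 1.5. In stimulated β-arrestin1/2 KO cells the order began with BTG2 at 327 ± 7, TOB1 at 220.1 ± 6.3 and ZFP36L1 at 102 ± 3 TPM, with ZFP36L1 now above ZFP36L2 at 83.4 ± 4.4. The basal wildtype means without the first replicate (n = 2) were 58.2 TPM for TOB1, 57.5 for ZFP36L2, 39.8 for BTG3 and 36.8 for BTG2, so BTG3 then stood above BTG2.

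**Figure D4:**
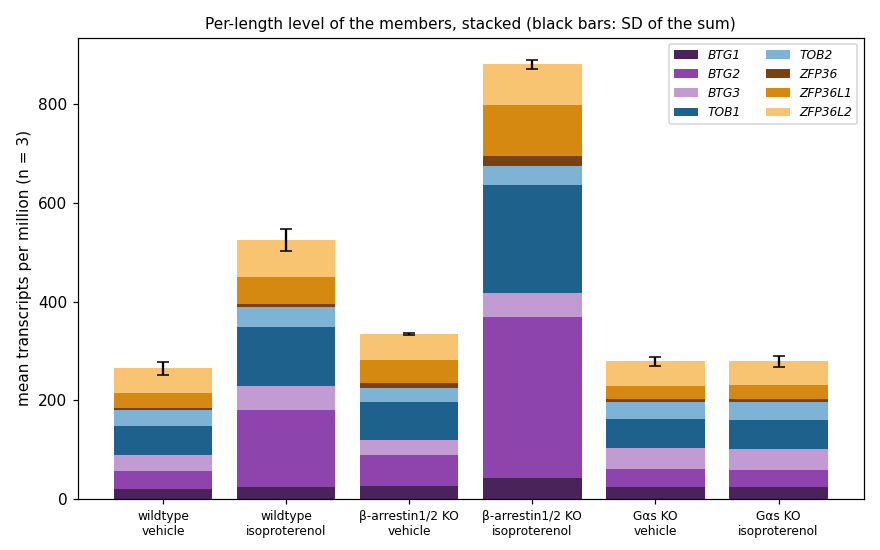
Stacked mean level of the 8 mRNAs in each group, in TPM on a linear axis from 0 (n = 3), with the SD of their sum as black bars. The wildtype sum is 265 under vehicle and 524 under isoproterenol, that of β-arrestin1/2 KO cells is 334 and 881, and both Gαs KO groups are at 279, and BTG2 and TOB1 make up most of the increase.

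Summed over the 8 genes, the per-length level in wildtype cells was 265 ± 13 TPM at basal and 524 ± 23 with isoproterenol (SD, n = 3). For β-arrestin1/2 KO cells it was 334 ± 2 and 881 ± 9, and for Gαs KO cells 279 ± 9 and 279 ± 11. BTG2 accounted for 20.3 ± 0.6% of the BTG/TOB sum in basal wildtype cells, for 40.2 ± 2.5% with isoproterenol and for 48.5 ± 1.0% in stimulated β-arrestin1/2 KO cells. The share of TOB1 was 33.6 ± 3.2%, 30.9 ± 1.0% and 32.7 ± 0.8% in the same groups, which lay within the spread of the basal libraries. The basal wildtype sum without its first replicate was 271.5 TPM, with a share of 20.3% for BTG2 (n = 2). A single transcript held most of the counts of 7 genes, with medians of 92.6% (BTG3-202) to 100% (BTG1-201 and ZFP36L2-201). The estimates for ZFP36 moved between ZFP36-202 and ZFP36-203 from 0 to 100% among libraries, so only the gene sum was used.

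The mRNAs of the proteins that act with these factors were looked up in lists. By edgeR's quasi-likelihood test 0 of the 11 subunits of the CCR4-NOT deadenylase were called in the response of any line. The same held for 8 poly(A)-binding proteins and other deadenylases, 17 decapping and 5′-to-3′ decay genes, 15 exosome and 3′-to-5′ decay genes, 9 other AU-rich element binding proteins, 13 other adaptors, and 12 kinases, phosphatase subunits and 14-3-3 proteins of the ZFP36 pathway. Over these 85 genes 11 had an unadjusted p under 0.05 in wildtype cells, 11 with both β-arrestins knocked out and 0 in Gαs KO cells. That is 12.9, 12.9 and 0% of them, beside 10.5, 8.31 and 1.05% of all genes. DESeq2's Wald test called 2 of them, CPEB2 and EIF4ENIF1, in the β-arrestin1/2 KO response and 0 in the others. In wildtype cells edgeR called 3 of them, 1 higher and 2 lower, without the first basal replicate. Of the 108 genes in the 8 lists 100 were tested, and the calls in the responses, 4 for wildtype and 6 for β-arrestin1/2 KO cells, all fell among the 15 tested mRNAs known as targets of ZFP36 proteins. In that list the median log2 fold change was 0.31 for wildtype and 0.54 for β-arrestin1/2 KO cells, against 0.00 and -0.01 over all genes. DUSP1, a phosphatase of MAP kinases that acts on the p38 to MK2 arm, rose in wildtype cells (log2 2.52) and with both β-arrestins knocked out (log2 3.56) (edgeR adjusted p = 1.52e-09 and 1.26e-11) and was at -0.01 in Gαs KO cells. FOS, a subunit of AP-1, rose by 3.25 and 3.56 (adjusted p = 8.62e-09 and 1.57e-09). VEGFA and CCND1 were called in β-arrestin1/2 KO cells only, by 0.58 and 0.37, and the difference between the lines was not called for either (adjusted p = 0.94 and 1.00). Without the first wildtype basal replicate both were called in wildtype cells too (0.38 and 0.24, adjusted p = 0.0431 and 0.0172), among 7 of the 15 targets. These lists were drawn up with results of these data known, and no test of a list was made.

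Between lines at basal, every list held genes that were called. The CCR4-NOT list had 2 higher and 1 lower of 11 in each knockout line, and the exosome list had 2 higher and 5 lower of 15 for β-arrestin1/2 KO cells against 2 higher and 4 lower in Gαs KO cells. Of the 15 tested ZFP36 targets 3 were higher and 3 lower in the former and 2 higher and 5 lower in the latter. CNOT7, a CAF1 subunit that BTG/TOB proteins bind, was lower in basal Gαs KO cells by a log2 difference of -0.99 (edgeR adjusted p = 5.49e-05) and at 0.00 in β-arrestin1/2 KO cells (adjusted p = 0.99). CNOT2 was lower in β-arrestin1/2 KO cells (-0.42, adjusted p = 0.000765), and CNOT6, another deadenylase of the complex, was higher in both (0.47 and 0.41, adjusted p = 0.0192 and 0.0404). PAN3, of the PAN2-PAN3 deadenylase, was higher in both lines (0.82 and 0.65), and EXOSC4, an exosome subunit, was lower in both (-1.27 and -1.07). MAPKAPK3, a kinase related to MK2, was lower in both lines (-0.59 and -0.69, adjusted p = 0.00106 and 0.000314). Over the 8 lists 16 of 100 genes were higher and 17 lower in basal β-arrestin1/2 KO cells, and 20 higher and 14 lower in basal Gαs KO cells, beside the shares of 14.2 to 17.9% among all genes given above. Without the first wildtype basal replicate the counts were 22 higher and 26 lower, and 24 higher and 28 lower, in the fits that called 46.7 and 45.9% of all genes. The calls named for CNOT7, CNOT2, CNOT6, PAN3, EXOSC4 and MAPKAPK3 were also made there, with smaller differences for CNOT6 (0.25 and 0.19), PAN3 (0.59 and 0.41), EXOSC4 (-0.73 and -0.53) and MAPKAPK3 (-0.39 and -0.49).

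The genes whose levels over the 18 libraries were most like those of each factor are given as a description, since the libraries share groups and lines. The measure was Pearson's r of log2 CPM. For BTG2 these were DUSP1 (r = 0.99), JUNB (0.99) and TOB1 (0.99), for TOB1 they were DUSP1 (0.99), BTG2 (0.99) and SIK1B (0.98), and for ZFP36L2 they were RGS2 (0.98), NR4A2 (0.97) and SIK1 (0.96). ZFP36L1 was most like KLF4 (0.97) and CHMP1B (0.96), BTG1 like SLC20A1 (0.94), STC1 (0.93) and GADD45B (0.91), and ZFP36 like GADD45B (0.90), ETS2 (0.90) and ZNF503 (0.90). SIK1B and SIK1 are near-identical copies whose reads the counting could split, so their values are uncertain. For BTG3 the nearest genes were ARF4 (0.92), RND3 (0.92) and SRSF3 (0.90), and TOB2 had the lowest values, with CYR61 (0.85), JOSD1 (0.84) and CITED2 (0.83). Within the 8, r was 0.96 between BTG2 and ZFP36L1 and 0.92 between BTG2 and ZFP36L2, and it was 0.43 between BTG2 and either BTG3 or TOB2.

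The mRNAs of these factors carry the letters that ZFP36 proteins bind. In the 3′ untranslated regions of the most abundant transcripts (GENCODE 29), the heptamer TATTTAT occurred in 7 of the 8 genes, 3 times each in ZFP36, ZFP36L1 and ZFP36L2, 2 times in BTG3 and 1 time in BTG1, BTG2 and TOB2. TOB1 held only the pentamer ATTTA, which lies within the heptamer, 4 times. For the shares over all genes the longest annotated region of each gene was used instead, so the choice of transcript is not alike. Among all 19113 genes with a 3′ untranslated region 30.9% held the heptamer. Among the 11862 whose region was as long as those of the 8 genes (440 to 3802 bases) 33.1% did. The first heptamer and its flanks, in DNA letters with the heptamer in capitals, are shown for the gene with the most pentamers by length, for ZFP36L1 and for BTG2.
ZFP36: atgggcccttTATTTATgacgacttta
ZFP36L1: tatcaaaacgTATTTATtgccaaacta
BTG2: aatgaagagcTATTTATatatattatt
Pentamers numbered 7.01 per 1000 bases in ZFP36 and 0.924 in BTG2, against a median of 1.48 in the longest regions of all genes. Neither binding nor decay was measured here, so the counts describe levels of mRNA alone.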

How the data were processed

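RNA was sequenced from 6 groups of HEK293 cells with 3 replicates each. The deposited values were expected counts, which the authors obtained for 184844 transcripts with Salmon 1.7.0 and neither normalized nor pooled. The transcript index and strand setting are not given in the sources used here, and the tools and GRCh38 build come from the submitters' processing notes. Transcripts were summed by Ensembl identifier without version to GENCODE 29 genes, which kept 92.9 to 93.7% of the counts of a library, and sums were rounded. In R 4.3.3, edgeR 4.0.16 (TMM, filterByExpr by group, glmQLFit with 6 group coefficients over all 18 libraries) tested 15519 genes, with Benjamini-Hochberg adjustment. The SE is the log2 fold change divided by the square root of F. Tables were made in Python 3.11.15. The depth of 17908597 to 25019834 pairs leaves ZFP36, at 3.22 CPM in its lowest library, with the widest counting error.

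The members, lists and rule for named genes were chosen with earlier results of these data known, and the motif count in untranslated regions was added after the values were seen. The rule named all 8 members, the genes that check the labels, from each list up to 4 genes called in a response and up to 3 in a basal comparison, and the 3 genes most like each member, and some of the genes it named are not reported here. Alternatives were DESeq2 1.42.0 (size factors and Wald test), upper-quartile scaling, other filters, offsets from a lowess fit (span 0.3) on GC content and length, a replicate block, fewer libraries, protein-coding transcripts, and a threshold of 0.01. The fit was checked on simulated data. Replicate numbers did not pair the samples, since the mean correlation of same-numbered departures from the group means ran from -0.063 to 0.0367 over 7 pairs of groups. Proteins were not analysed here.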

Additional observations from a re-analysis of the deposited data

Results flagged for a closer look

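The response to isoproterenol differed between cell lines, by an interaction term in the edgeR model with Benjamini-Hochberg adjustment, for 3 of the 8 genes. BTG2 differed by -2.08 on the log2 scale between Gαs KO and wildtype cells. TOB1 differed by -0.99 between Gαs KO and wildtype cells and by 0.66 between β-arrestin1/2 KO and wildtype cells. ZFP36L1 differed by -0.67 between Gαs KO and wildtype cells. Groups of 3 libraries were too small for a test of single libraries that lie far from the others.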

How the results depend on the processing

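Directions held for 8 genes in 9 comparisons, save that BTG1 in isoproterenol-treated Gαs KO against wildtype cells turned to 0.00603 (log2) without wildtype isoproterenol replicate 1, at an adjusted p of 0.97; uncalled values within 1 SE of 0 were taken to have no direction. Leaving out any 1 library of the groups compared moved that value from -0.1698 to 0.00603. Called values kept the call in 183 fits that left out a library and lost it in 33, and kept it in 318 other fits and lost it in 34. The number of genes called of 8 changed in several fits, and the changes given here are not all of them. With only the libraries compared it was 1 in the wildtype response, 0 in the difference of β-arrestin1/2 KO from wildtype cells, and at basal 2 in β-arrestin1/2 KO cells and 0 in Gαs KO cells. With GC and length offsets it was 0 for that difference, also with a replicate block, and 1 at basal in Gαs KO cells. An adjusted p under 0.01 gave 0 and 1 for the same 2 comparisons, upper-quartile scaling and the filter at 1 count gave 1 at basal in Gαs KO cells, and DESeq2's Wald test gave 5 for the difference of Gαs KO from wildtype cells. With only the libraries compared, BTG3 was called in the β-arrestin1/2 KO response (edgeR adjusted p = 0.00915) and ZFP36L1 lost its call in the Gαs KO difference (0.226). TOB1 lost its call in that difference with GC and length offsets. At 0.01 calls were lost by ZFP36L2 (wildtype response), TOB2 and ZFP36 (β-arrestin1/2 KO response) and ZFP36L1 (Gαs KO difference). Leaving out 1 library gave 4 to 7 in the wildtype and 5 to 7 in the β-arrestin1/2 KO response, 0 to 3 and 2 to 4 for the differences of β-arrestin1/2 KO and Gαs KO, and 4 to 7 and 1 to 4 at basal, where the highest counts come from the fit without wildtype basal replicate 1, which called 46.7 and 45.9% of all genes. The replicate block gave 6 at basal in β-arrestin1/2 KO cells and the main counts elsewhere (5, 7, 0, 1, 3, 2, 5 and 4). Over all genes, the offsets gave 157 higher and 69 lower in the wildtype response, against 64 and 8, and 8 and 48 in the difference of Gαs KO, against 1 and 24. The cause was not tested. Depth limits ZFP36 most.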
